A study of Mus musculus with 21 samples.

Results

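Spiral ganglion neurons (SGNs) picked from the mouse cochlea at postnatal day 8 (P8) were compared with SGNs picked at P14, on either side of the age at which mice begin to detect sound. The comparison used 3 libraries per age, 6 of the 21 libraries of the study, and every gene with more than 1 CPM (counts scaled to the library total) in all 3 libraries of either age, which left 13164 of 52550 annotated genes. SGNs came from C57BL/6 mice that carried 1 copy each of *ShhCre* and of the Ai9 reporter *Rosa26-CAG-loxp-stop-loxp-tdTomato* at both ages, so that Cre driven from the *Shh* locus had switched on the red protein tdTomato for good in the picked cells. Red cells were collected by hand after pronase digestion, washed, amplified as bulk cDNA and sequenced with paired ends, and a batch was kept only if it passed a qPCR check, in which the glial gene *Sox10* and the HC gene *Myo6* had to be depleted. SGNs at E15.5, P1 and P30 entered the same fit. Hair cells (HCs) from P12 *Atoh1-CreER+* mice and glial cells from P8 *vGlut3-iCreER/+* mice served as reference levels only. Both of these lines carried the Ai9 reporter and were given tamoxifen in the first days after birth. The HCs were cochlear and vestibular cells together, sorted by fluorescence, and the glial cells were picked by hand from the cochlea. The labels do not say that the replicates of an age came from separate animals, so the p-values measure the spread between these libraries.

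SGNs are the bipolar neurons that receive glutamate from inner HCs at ribbon synapses and carry spikes along the auditory nerve. In the weeks around hearing onset their axons stop extending and are wrapped in myelin by glial cells, spontaneous bursts give way to sound-driven firing, and they acquire the fast, phase-locked spiking for which they are known. Fast spiking rests on voltage-gated sodium channels gathered at nodes and the spike initiation zone, on low-threshold Kv1 and high-threshold Kv3 potassium channels that repolarize the membrane, and on HCN channels that set its resting conductance.

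At P14, 44 genes were higher than at P8 and 53 were lower, at a Benjamini-Hochberg adjusted p below 0.05 and a change over 2-fold in limma-voom, two-sided. These were 0.334% and 0.403% of the genes tested, or 0.737% in all. Without the fold limit 79 genes were higher (0.6%) and 66 lower (0.501%), and 1676 genes had an unadjusted p under 0.05. Subunits of voltage-gated sodium and potassium channels, the perineuronal matrix protein *Hapln4* and the calcium buffer *Calb2* were among the rises. Cytoskeletal and membrane proteins of growing axons (*Basp1*, *Tubb2b*, *Dpysl3*, *Marcksl1*, *Dcx*) and several basement membrane and myelin genes were among the falls. The median absolute change was 1.25 on the log2 scale for the rises and 1.63 for the falls. In every called gene the 3 libraries of one age lay above the 3 of the other in CPM, which held for 21.1% of all genes tested. Leaving out 1 library left 15, 16 and 16 rises and 25, 31 and 23 falls (P8 replicates 1, 2 and 3), and 35, 26 and 21 rises and 30, 21 and 18 falls (P14 replicates 1, 2 and 3). edgeR's quasi-likelihood test called 7 rises and 35 falls, and scaling by library size alone called 25 and 70 (26.3% rises, against 45.4% in the main fit). Of the main calls, 10 rises and 14 falls passed both thresholds whichever of the 6 libraries was left out.

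**Figure D1:**
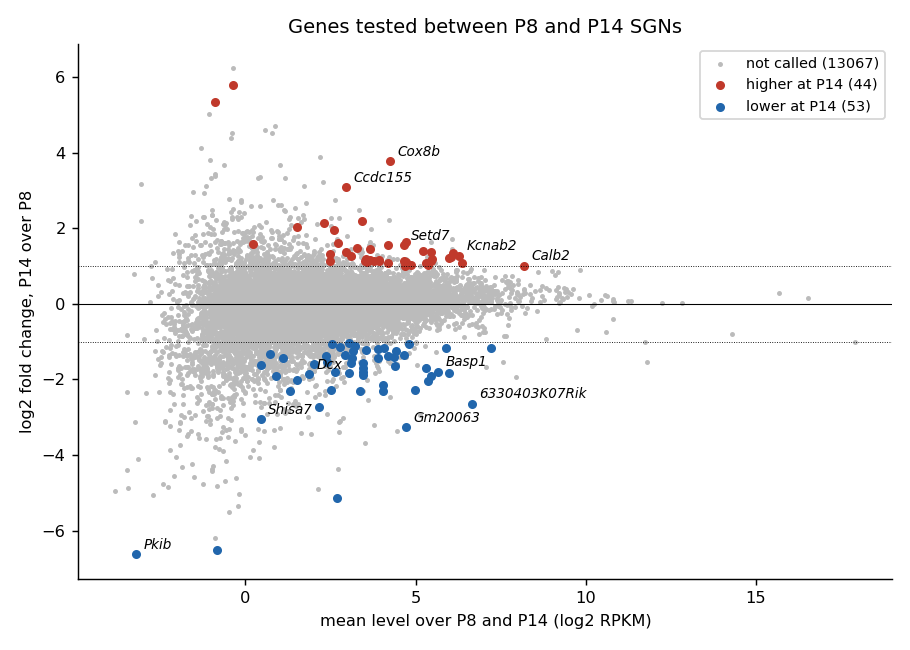
Change from P8 to P14 for each of the 13164 genes tested, as the log2 fold change of the fit (vertical axis; dotted lines at a 2-fold change) against the mean level over the 6 libraries in log2 RPKM (horizontal axis). Red points are the 44 genes higher at P14 and blue points the 53 lower; the called genes lie over a wide range of levels, and grey points beyond the lines did not pass the adjusted p.

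Total counts were 28516927 to 35591662 per P8 library and 19323437 to 25843913 per P14 library. Mitochondrially encoded genes took 21.6% ± 1.01 of the counts at P8 and 22.9% ± 1.08 at P14 (SD, n = 3 each; exact permutation p = 0.3, two-sided, where 0.1 is the smallest possible). The summed level of 12 SGN markers was 1955 to 2197 RPKM (CPM per kilobase of exon) at P8 and 2731 to 2970 at P14, against 27.9 to 259.8 in the glial libraries and 142 to 176 in the HC libraries. Glial, HC and connective tissue markers were detected in the SGN libraries at both ages. The 15 glial markers summed to 1195, 739 and 889 RPKM in the P8 libraries and 566, 417 and 342 in the P14 libraries, against 7624 to 9932 in glia. The 16 HC markers summed to 413, 288 and 331 RPKM at P8 and 485, 199 and 142 at P14, against 2773 to 3087 in HCs. Replicate 1 of each age stood apart in 10 connective tissue markers, at 243 RPKM against 21.1 and 17.8 at P8, and at 92.9 against 5.02 and 4.80 at P14. So did replicate 1 of P1 (835 against 11.7 and 14.6) and of P30 (61.8 against 2.07 and 0.751). At E15.5 replicate 1 was the lowest (42.2 against 165 and 57.4). Replicate 1 of P8 and of P14 also stood apart in the activity-induced gene *Egr1*, at 211 RPKM against 20.003 and 26.2 at P8 and 113 against 19.3 and 20.7 at P14. Of the 8 macrophage and 6 endothelial markers none had over 1 CPM in all 3 libraries of an age, and of 6 blood cell markers 1 did. That rule does not show signal in 1 library. P8 replicate 1 stood apart in the summed blood cell markers, at 21.2 RPKM against 0.734 and 0.467. In the endothelial markers it was at 8.90 RPKM against 0.127 and 0.166, and P14 replicate 1 at 2.26 against 0.0098 and 0.089. The blood cell sum was also highest in replicate 1 at E15.5, P1 and P30 (139, 20.6 and 12.8 RPKM), but not at P14. Every one of the 6 libraries held reads of both *Xist* and Y-linked genes, but in unequal amounts. The Y-linked gene *Ddx3y* was at 2.52, 4.89 and 3.70 RPKM at P8 and 0.216, 3.94 and 0.657 at P14. *Xist* was at 25.2, 17.7 and 14.7 RPKM and then at 25.9, 12.3 and 12.8. All 5 sex genes tested had a negative log2 change (median -1.57), and 0 passed the adjusted p. The mix of sexes in the libraries was not tested. In bulk libraries, fewer cells of a type and less RNA per cell cannot be told apart.

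Of 35 voltage-gated potassium channel genes tested, 5 were higher past the adjusted p and 0 lower, and the median log2 change was 0.27, against -0.01 over all genes tested. Of all 13164 genes tested, 79 were higher past the adjusted p (0.6%). *Kcnab2*, which encodes an auxiliary subunit of Kv1 channels, stood at 43.7, 50.1 and 48.8 RPKM in the P8 libraries and at 90.8, 116 and 118 at P14. Its log2 change was 1.27 ± 0.17 (SE; adjusted p = 0.0012, limma), and it was called with each library left out in turn. *Kcnc1*, a pore subunit of the high-threshold Kv3 channels, was at 34.1, 37.4 and 34.2 RPKM and then at 57.4, 50.9 and 63.9 (log2 change 0.80 ± 0.15, adjusted p = 0.015, limma), short of a 2-fold change.

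The pore subunits of Kv1 channels that passed rose by less than 2-fold. *Kcna1* stood at 51.7, 73.9 and 64.4 RPKM at P8 and 107, 106 and 101 at P14, a log2 change of 0.84 ± 0.18 (adjusted p = 0.036, limma). *Kcna2* stood at 52.6, 63.3 and 47.6 RPKM and then at 83.5, 102 and 97.8 (log2 change 0.89 ± 0.17, adjusted p = 0.021, limma). The ages did not overlap for either gene, and both also had high levels in P8 glia, with means of 328 and 53.4 RPKM. *Kcnh2*, an ERG-type channel among the most abundant of the list, was at 56.6, 65.6 and 53.1 RPKM at P8 and 44.2, 45.7 and 53.6 at P14, and the ages overlapped. The number of higher members was 1, 3 and 1 without P8 replicate 1, 2 or 3 and 2 without P14 replicate 2 or 3, and edgeR's quasi-likelihood test called 1. None of 20 calcium-activated, leak and inward rectifier potassium channel genes passed (median log2 change 0.14).

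Among 11 sodium channel subunit genes tested, 2 passed the adjusted p and rose, while the median of the list was -0.33. *Scn4b*, the auxiliary beta subunit associated with resurgent sodium current and rapid firing, was at 22.7, 32.6 and 30.9 RPKM at P8 and 62.3, 70.0 and 48.6 at P14. Its log2 change was 1.18 ± 0.18 (adjusted p = 0.0042, limma). The ages did not overlap, and it stayed past the adjusted p in each of the 6 leave-outs. The count of higher members fell to 1 without P8 replicate 1, P8 replicate 2, P14 replicate 2 or P14 replicate 3, and to 0 in edgeR's quasi-likelihood test. The pore-forming subunits shown here did not pass. *Scn8a*, the Nav1.6 channel of mature nodes, stood at 23.7, 26.4 and 29.3 RPKM and then at 36.3, 46.5 and 38.5, with no overlap between the ages (log2 change 0.71 ± 0.19, adjusted p = 0.077, limma). *Scn1a*, the Nav1.1 channel, was at 32.7, 53.9 and 42.6 RPKM and then at 31.5, 33.3 and 39.5, with overlap.

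*Hcn2* was the 1 member of 5 HCN channel genes to pass. It went from 6.70, 9.78 and 7.83 RPKM to 14.8, 14.6 and 21.9 (log2 change 1.16 ± 0.25, adjusted p = 0.036, limma), and it was called in 1 of the 6 leave-outs. *Hcn4*, a slower member of the family, stood at 14.4, 14.9 and 13.9 RPKM and then at 12.5, 15.7 and 8.64. Among 16 voltage-gated calcium channel genes the 1 past the adjusted p fell. *Cacna1e*, the R-type channel Cav2.3, was at 3.67, 6.00 and 4.48 RPKM at P8 and at 1.04, 1.13 and 1.00 at P14. Its log2 change was -2.02 ± 0.44 (adjusted p = 0.034, limma), it did not pass in any of the leave-outs, and the median of the list was -0.27. *Cacna1a*, the P/Q-type channel Cav2.1, was at 11.6, 13.6 and 13.01 RPKM and then at 11.6, 10.6 and 11.95.

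**Figure D2:**
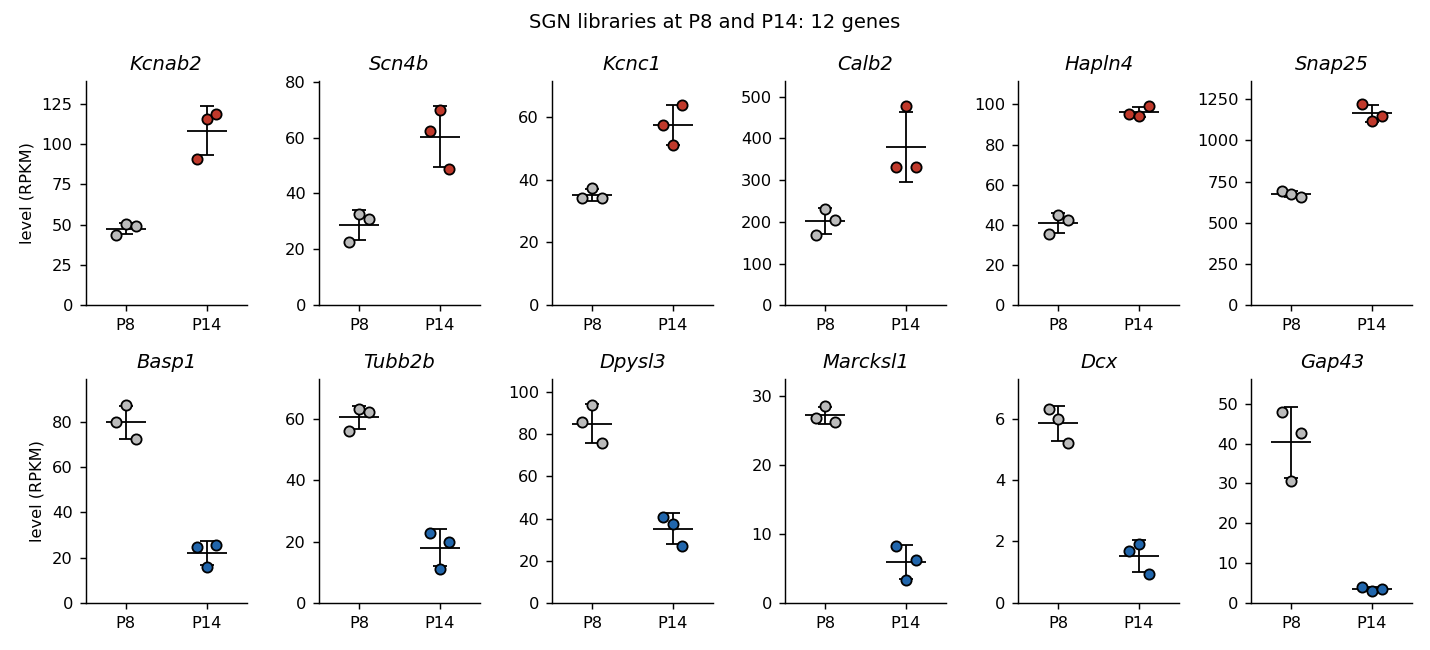
Level of 12 genes in each P8 library (grey) and P14 library (coloured), in RPKM on axes that start at 0; lines are the mean and SD of 3 libraries. The 3 P14 libraries lie above the 3 P8 libraries for the top row and below them for the bottom row; *Gap43* (bottom right) missed the adjusted p in spite of the gap.

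Growing axons use a set of cytoskeletal and membrane proteins that mature axons largely lack. Of 54 axon growth and guidance genes tested, 6 were lower past the adjusted p and 0 higher, 48 had a negative log2 change, and the median was -0.75. Of all 13164 genes tested, 66 were lower past the adjusted p (0.501%) and 6683 had a negative log2 change. In the 37 list members whose P8 glial level was not above the P8 SGN level the median was -0.65. That choice used the same P8 SGN libraries as the log2 change, which can favour negative values. A like median over all genes was not computed. The 6 were *Basp1*, *Marcksl1*, *Tubb2b*, *Dpysl3*, *Dcx* and *Ncam1*, and their number was 3 without P14 replicate 2 or 3. *Basp1*, a membrane-bound growth cone protein related in function to *Gap43*, was at 79.9, 87.3 and 72.7 RPKM at P8 and 24.6, 15.9 and 25.6 at P14. Its log2 change was -1.79 ± 0.26 (adjusted p = 0.0024, limma), and the call held with each library left out. *Marcksl1*, an actin-regulating substrate of protein kinase C, went from 26.8, 28.6 and 26.3 RPKM to 8.29, 3.38 and 6.26 (log2 change -2.16 ± 0.41, adjusted p = 0.018, limma).

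A tubulin and proteins that bind it were also among the 6. *Tubb2b*, a beta-tubulin of young neurons, was at 56.2, 63.3 and 62.3 RPKM and then at 22.9, 11.2 and 19.8, a log2 change of -1.70 ± 0.32 (adjusted p = 0.017, limma). *Dpysl3*, a collapsin response mediator protein of growth cones, was at 85.6, 93.8 and 75.7 RPKM and then at 41.0, 37.6 and 27.2 (log2 change -1.18 ± 0.15, adjusted p = 0.0011, limma). *Dcx*, the microtubule-associated protein doublecortin of migrating and young neurons, was at 6.32, 5.99 and 5.20 RPKM and then at 1.69, 1.93 and 0.949 (log2 change -1.87 ± 0.31, adjusted p = 0.0078, limma). In all 3 genes the lowest P8 library was far above the highest P14 library, and in *Dpysl3* and *Dcx* the adjusted p stayed under 0.05 in each leave-out. *Ncam1*, a neural cell adhesion molecule, was at 26.4, 22.1 and 16.4 RPKM and then at 12.7, 9.30 and 10.6 (log2 change -0.88 ± 0.20, adjusted p = 0.042, limma).

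Other cytoskeletal genes outside that list were also called. *Fscn1*, which bundles actin in filopodia, went from 28.8, 26.5 and 26.6 RPKM to 8.02, 2.38 and 6.84 (log2 change -2.31 ± 0.40, adjusted p = 0.0096, limma). *Tmsb10*, a thymosin that binds actin monomers, went from 86.0, 46.7 and 71.3 RPKM to 18.7, 11.4 and 14.9 (log2 change -2.05 ± 0.47, adjusted p = 0.043, limma). Both were lower in every P14 library than in any P8 library.

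*Gap43*, the best known growth cone protein, had a more negative fitted change than any of the 6 but missed the threshold. It was at 47.9, 30.5 and 42.6 RPKM at P8 and 4.09, 3.04 and 3.60 at P14, a log2 change of -3.36 ± 0.83 (adjusted p = 0.061, limma), with an adjusted p between 0.00084 and 0.22 over the alternatives. No P14 library came near the P8 libraries. *Stmn2*, a tubulin-sequestering protein, was at 96.1, 96.6 and 103 RPKM and then at 63.1, 58.2 and 73.6 (log2 change -0.51 ± 0.15, adjusted p = 0.1, limma), again with no overlap. *Nefl*, the light neurofilament subunit and the most abundant of its list, was at 1103, 1344 and 1268 RPKM at P8 and 1018, 1035 and 1472 at P14, with 32.8% of its exon bases overlapped by another gene. *Nefh*, the heavy subunit of large calibre axons, was at 528, 313 and 439 RPKM and then at 638, 742 and 610 (log2 change 0.77 ± 0.24, adjusted p = 0.14, limma). None of 7 neurofilament and intermediate filament genes passed, and their median log2 change was 0.00.

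**Figure D3:**
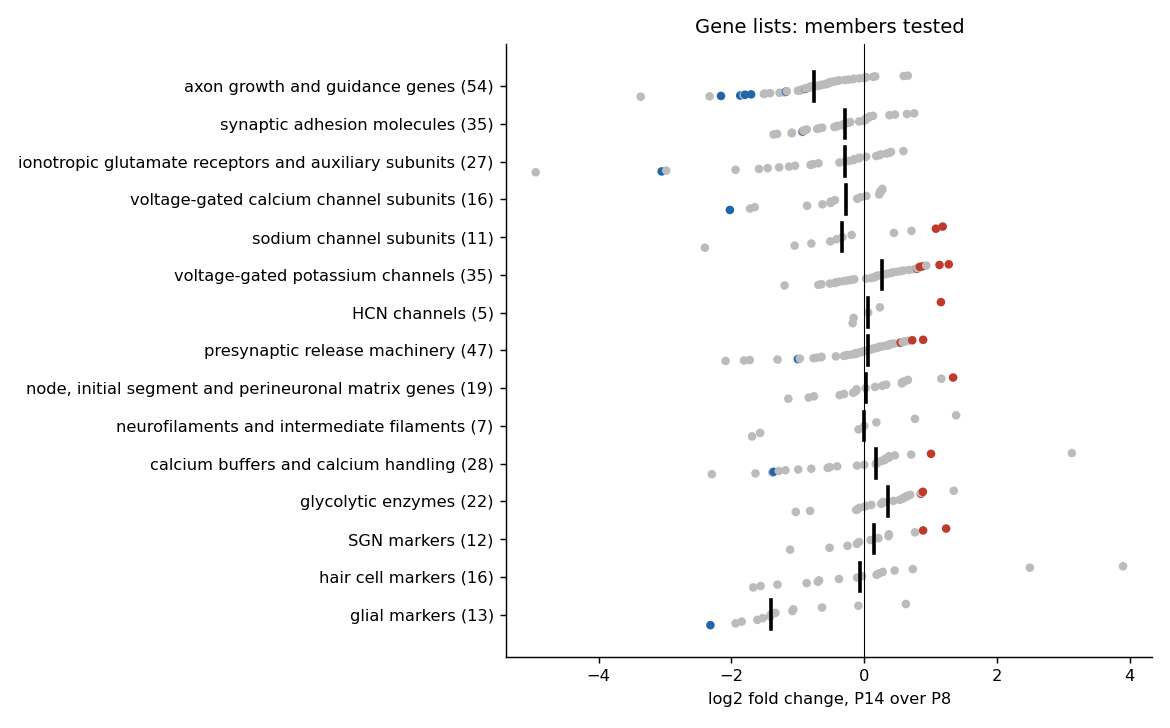
Log2 fold change from P8 to P14 (horizontal axis) of every tested member of 15 gene lists, with the number tested in brackets. Coloured points passed the adjusted p of 0.05 (red higher, blue lower), grey points did not, and black bars are list medians; the medians of the axon growth list (-0.75) and of the glial markers (-1.41) lie furthest from 0.

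On the release side of the synapse, 3 of 47 presynaptic genes were higher past the adjusted p and 1 lower, with a median log2 change of 0.06. *Snap25*, a plasma membrane SNARE of vesicle fusion, was one of the most abundant members. It stood at 690, 674 and 657 RPKM at P8 and 1219, 1120 and 1151 at P14 (log2 change 0.89 ± 0.11, adjusted p = 0.0011, limma), and it passed in each leave-out. *Nsf*, the ATPase that takes SNARE complexes apart, was at 60.1, 66.2 and 69.3 RPKM and then at 98.5, 99.7 and 102 (log2 change 0.72 ± 0.15, adjusted p = 0.025, limma). *Syt11*, a synaptotagmin that does not bind calcium, was at 100.3, 105 and 94.4 RPKM and then at 138, 116 and 159 (log2 change 0.55 ± 0.13, adjusted p = 0.046, limma). These 3 rises were smaller than 2-fold, and the count of higher members was 1 or 2 in the leave-outs.

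The active zone scaffold *Erc2* was the presynaptic gene that fell, from 13.8, 17.6 and 15.9 RPKM to 8.21, 7.08 and 6.61 (log2 change -0.998 ± 0.17, adjusted p = 0.008, limma). *Cplx1*, the complexin of fast synapses, was at 485, 589 and 602 RPKM at P8 and 631, 532 and 747 at P14, and *Syp*, the vesicle protein synaptophysin, was at 167, 198 and 236 and then at 215, 220 and 303. The ages overlapped for both genes. *Syngr1*, another vesicle membrane protein, was called, at 18.05, 21.9 and 18.4 RPKM and then at 32.7, 28.7 and 54.2 (log2 change 1.02 ± 0.23, adjusted p = 0.042, limma), but in none of the leave-outs.

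On the receiving side, 1 of 27 ionotropic glutamate receptor and auxiliary subunit genes passed, and it fell. This was *Shisa7*, whose product associates with AMPA and GABA-A receptors, and its P8 level was already low. It stood at 2.95, 2.02 and 2.26 RPKM and then at 0.542, 0.440 and 0.0624 (log2 change -3.05 ± 0.68, adjusted p = 0.04, limma), and it did not pass in any leave-out. *Gria4*, an AMPA receptor subunit, overlapped between the ages and was at 27.1, 35.2 and 31.5 RPKM at P8 and 19.8, 28.8 and 32.2 at P14. *Cacng5*, an AMPA receptor auxiliary subunit, was at 42.5, 41.9 and 35.0 RPKM and then at 22.9, 21.2 and 21.3, without overlap (log2 change -0.77 ± 0.22, adjusted p = 0.095, limma). Of 35 synaptic adhesion genes 1 passed, *Cadm1*, which fell from 22.1, 25.5 and 24.2 RPKM to 11.6, 13.2 and 10.4 (log2 change -0.93 ± 0.18, adjusted p = 0.021, limma). *Slitrk3*, a postsynaptic organizer of inhibitory synapses in the brain, was at 45.3, 41.0 and 44.0 RPKM and then at 22.3, 25.5 and 27.3 (log2 change -0.71 ± 0.18, adjusted p = 0.067, limma). None of 26 metabotropic glutamate, GABA, glycine, cholinergic and purinergic receptor genes passed (median -0.03).

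*Hapln4*, a link protein that ties hyaluronan to proteoglycans in perineuronal and perinodal matrix, was the 1 of 19 node, initial segment and perineuronal matrix genes to pass. It was at 35.4, 45.2 and 42.5 RPKM at P8 and at 95.3, 94.1 and 99.2 at P14, a log2 change of 1.34 ± 0.15 (adjusted p = 0.0006, limma), and it was past the adjusted p in each leave-out. The P14 libraries differed by very little among themselves. *Ank3*, the ankyrin-G scaffold of initial segments and nodes, was at 24.1, 24.4 and 23.5 RPKM and then at 22.5, 20.3 and 19.2, and it did not pass. The list median was 0.02.

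*Calb2*, the calcium buffer calretinin and a marker of a subgroup of type I SGNs, had the highest level of the called rises. It was at 169, 231 and 204 RPKM at P8 and at 331, 477 and 333 at P14, a log2 change of 1.01 ± 0.23 (adjusted p = 0.04, limma), and it lost the call in each leave-out. *Lypd1*, an LY6-family gene that marks another type I subgroup, was at 34.5, 40.3 and 47.2 RPKM and then at 66.0, 125 and 84.2 (log2 change 1.23 ± 0.29, adjusted p = 0.046, limma), with 17.1% of its exon bases overlapping *Gpr39*. These were the 2 of 24 SGN subtype markers that passed, and they mark different subgroups. Of 28 genes of calcium buffering and handling, *Calb2* was the 1 that rose and *Camk4*, a calcium/calmodulin-dependent kinase, the 1 that fell, from 35.3, 43.0 and 32.7 RPKM to 13.4, 15.3 and 11.5 (log2 change -1.36 ± 0.24, adjusted p = 0.0093, limma). *Pvalb*, the buffer parvalbumin, was at 270, 374 and 434 RPKM and then at 332, 392.1 and 602, with overlap.

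No gene of 28 SGN transcription factors passed, and the list median was -0.17. *Prox1*, a homeobox factor expressed in young SGNs, was at 40.9, 52.4 and 43.5 RPKM and then at 34.03, 44.8 and 29.2. No gene passed among 18 of neurotrophin and growth factor signalling (median -0.06), and the receptor *Ntrk3* was at 24.7, 32.2 and 27.9 RPKM and then at 18.2, 23.9 and 23.6. The de novo DNA methyltransferase *Dnmt3a*, the 1 of 15 DNA methylation genes to pass, fell by less than 2-fold, from 43.9, 49.4 and 42.7 RPKM to 27.4, 29.7 and 29.6 (log2 change -0.55 ± 0.13, adjusted p = 0.046, limma). None of 22 immediate early genes passed (median -0.19). Nor did any of 17 cell cycle genes (-0.05), 20 stress and chaperone genes (0.15), 11 neuropeptide and granin genes (0.33) or 50 clustered protocadherins (-0.25).

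Most genes of energy supply had positive log2 changes, with few calls. Of 22 glycolytic enzymes, 2 were higher past the adjusted p, with a list median of 0.36. *Pkm*, pyruvate kinase, was at 81.9, 104 and 98.2 RPKM and then at 144, 145 and 206 (log2 change 0.88 ± 0.17, adjusted p = 0.018, limma), with 15.3% of its exon bases overlapping another gene. *Eno1*, enolase, was at 50.0, 61.7 and 49.5 RPKM and then at 83.0, 74.7 and 121 (log2 change 0.85 ± 0.20, adjusted p = 0.046, limma). Both passed without a 2-fold change, and in the leave-outs the count was 0 or 1. Of 79 nuclear genes of oxidative phosphorylation, 73 had a positive log2 change, beside 6481 of all 13164 genes tested, and the median was 0.29. The ages overlapped in the list's summed level, at 5653, 6270 and 6494 RPKM at P8 and 6326, 6213 and 8298 at P14, where replicate 3 was the highest. The complex I subunit *Ndufs7* was the 1 member that passed. It was at 27.2, 25.6 and 32.8 RPKM and then at 47.3, 40.6 and 53.6 (log2 change 0.83 ± 0.19, adjusted p = 0.046, limma). *Ckb*, the brain creatine kinase, rose from 272, 276 and 303 RPKM to 439, 395 and 624 (log2 change 0.85 ± 0.16, adjusted p = 0.018, limma).

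The other metabolic and housekeeping lists gave few or no calls. The 16 mitochondrially encoded genes gave no call (median 0.08), nor did 84 cytosolic ribosomal protein genes (-0.15) or 13 sodium-potassium ATPase and chloride cotransporter genes (-0.55). Of 34 cholesterol and fatty acid synthesis genes (median -0.36), 1 passed: the fatty acid desaturase *Fads1* fell from 31.2, 24.2 and 25.7 RPKM to 12.8, 8.49 and 7.67 (log2 change -1.39 ± 0.27, adjusted p = 0.021, limma).

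The rises of largest fold were mostly genes at low levels. *Ccdc155*, a meiosis and nuclear envelope protein also called KASH5, was at 1.78, 1.93 and 1.44 RPKM at P8 and 12.5, 14.8 and 14.2 at P14, a log2 change of 3.09 ± 0.48 (adjusted p = 0.0042, limma). It stayed past the adjusted p in each leave-out. *Lrrc30* was at 2.73, 4.50 and 5.14 RPKM and then at 14.7, 15.03 and 22.4 (log2 change 2.20 ± 0.41, adjusted p = 0.016, limma). *Ldb3*, a PDZ and LIM domain protein known from muscle Z-discs, was at 0.971, 1.33 and 1.26 RPKM and then at 4.05, 4.16 and 5.57 (log2 change 2.04 ± 0.35, adjusted p = 0.0093, limma), with an HC mean of 21.7 RPKM. Also in HCs, the ciliary gene *Hydin* had a mean of 53.3 RPKM. In SGNs *Hydin* stood at 0.600, 0.535 and 0.686 RPKM and then at 2.60, 1.48 and 1.10 (log2 change 1.58 ± 0.32, adjusted p = 0.025, limma). The HC markers *Otof*, at 3.53, 2.33 and 2.4002 RPKM and then 34.6, 12.2 and 6.17, and *Slc17a8*, at 0.655, 0.432 and 0.579 and then 14.99, 7.40 and 3.41, had the same order of P14 libraries as *Hydin* and did not pass. That order at P14 was also the order of the summed HC markers (485, 199 and 142 RPKM) and of most single ones, but not of *Cib2*, *Lhfpl5* or *Atp2b2*. Not all HC markers rose. *Ocm*, the most abundant, had the same order at P14 but was at 250.8, 129.9 and 160.2 RPKM and then at 211.2, 38.3 and 11.7. Of the 16 HC markers, 7 had a positive and 9 a negative log2 change (median -0.07), and none passed. The part of HC RNA in these rises was not tested.

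Among rises of higher level, *Amigo3*, a transmembrane leucine-rich repeat protein, was at 10.03, 14.04 and 16.9 RPKM and then at 36.3, 41.8 and 37.8 (log2 change 1.65 ± 0.28, adjusted p = 0.0078, limma). *Setd7*, a lysine methyltransferase, was at 16.4, 14.998 and 9.27 RPKM and then at 40.0, 38.3 and 31.6 (log2 change 1.56 ± 0.21, adjusted p = 0.0012, limma). *Sun2*, which links the nuclear envelope to the cytoskeleton, was at 6.48, 4.06 and 5.75 RPKM and then at 13.2, 13.3 and 14.9 (log2 change 1.47 ± 0.23, adjusted p = 0.0042, limma). *Setd7* and *Sun2* were called with each library left out, as were *6430548M08Rik*, *Stk24* and *Tmem250-ps*. *Faim2*, an inhibitor of Fas-mediated apoptosis in neurons, rose from 22.3, 24.0 and 17.6 RPKM to 47.5, 66.7 and 44.0 (log2 change 1.39 ± 0.21, adjusted p = 0.0039, limma). *Cpeb1*, which binds the cytoplasmic polyadenylation element of mRNAs, rose from 6.27, 8.93 and 6.06 RPKM to 13.6, 21.8 and 19.5 (log2 change 1.44 ± 0.30, adjusted p = 0.029, limma). The remaining genes among the 15 largest rises were *Syde1*, *Dexi*, *Phyhip* and *Akain1*, with log2 changes between 1.38 and 2.13.

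Among the falls of largest fold, *6330403K07Rik* had the highest level. It was at 163, 160 and 197 RPKM at P8 and 24.7, 43.6 and 14.9 at P14, a log2 change of -2.64 ± 0.30 (adjusted p = 0.0006, limma), and was called with each library left out. *Gm20063* was at 37.8, 52.1 and 48.8 RPKM and then at 9.10, 9.17 and 0.760 (log2 change -3.26 ± 0.68, adjusted p = 0.029, limma). Replicate 3 was the lowest P14 library for both genes. *Tmeff1*, a transmembrane protein with follistatin-like domains, fell from 14.7, 20.4 and 17.2 RPKM to 4.45, 5.57 and 3.25 (log2 change -1.88 ± 0.32, adjusted p = 0.008, limma). The neuronal transcription factor gene *Npas3* fell from 3.30, 2.62 and 2.87 RPKM to 0.779, 1.15 and 0.396 (log2 change -1.91 ± 0.44, adjusted p = 0.044, limma).

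Of 13 glial markers tested, 12 had a negative log2 change, beside 6683 of all 13164 genes tested. The median of the markers was -1.41, and 1, *Prx*, passed. *S100b* had a positive log2 change, with 98.0, 92.5 and 122 RPKM at P8 and 98.0, 160 and 219 at P14, and its level in SGNs was above the 17.7 RPKM of glia. Of the 53 falls, 26 (49.1%) had a mean P8 glial level above the P8 SGN level, beside 50.7% of all genes tested and 6 of the 44 rises (13.6%). In 13 falls the glial level was over 4 times the SGN level, which held for 11.1% of all genes tested and for 1 rise, *Syde1*, at 2.02, 2.49 and 1.43 RPKM and then 10.2, 8.03 and 5.86 (glia 23.4). The part of glial RNA in these falls was not tested.

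The falls with high glial levels included genes of myelin and of the basement membrane around Schwann cells. *Prx*, the periaxin of myelinating Schwann cells, was at 16.7, 16.3 and 17.97 RPKM and then at 5.62, 4.45 and 1.03 (log2 change -2.32 ± 0.46, adjusted p = 0.022, limma; glia 117). *Lamc1*, the laminin gamma-1 chain, was at 90.2, 58.3 and 57.6 RPKM and then at 31.7, 18.5 and 7.42 (log2 change -1.90 ± 0.37, adjusted p = 0.021, limma; glia 397). *Lama2*, the laminin alpha-2 chain, was at 13.9, 7.68 and 7.27 RPKM and then at 2.60, 1.41 and 1.47 (log2 change -2.27 ± 0.46, adjusted p = 0.024, limma; glia 96.5). In these genes no P14 library reached the lowest P8 library. *Itga6*, an integrin that binds laminin, was at 14.9, 11.7 and 12.9 RPKM and then at 5.61, 3.40 and 3.47 (log2 change -1.57 ± 0.27, adjusted p = 0.0096, limma; glia 162). *Sostdc1*, a secreted modulator of BMP and Wnt signals, was at 70.1, 41.8 and 44.4 RPKM and then at 17.0, 12.6 and 3.72 (log2 change -2.27 ± 0.51, adjusted p = 0.04, limma; glia 250.2). Of the axon growth falls, *Basp1*, *Tubb2b*, *Dpysl3* and *Dcx*, like *Fscn1* and *Tmsb10*, had P8 glial levels below their P8 SGN levels. The other axon growth falls, *Marcksl1* and *Ncam1*, had glial means of 52.9 and 35.3 RPKM, above their P8 SGN means of 27.2 and 21.6, as did 17 of the 54 list members in all.

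**Figure D4:**
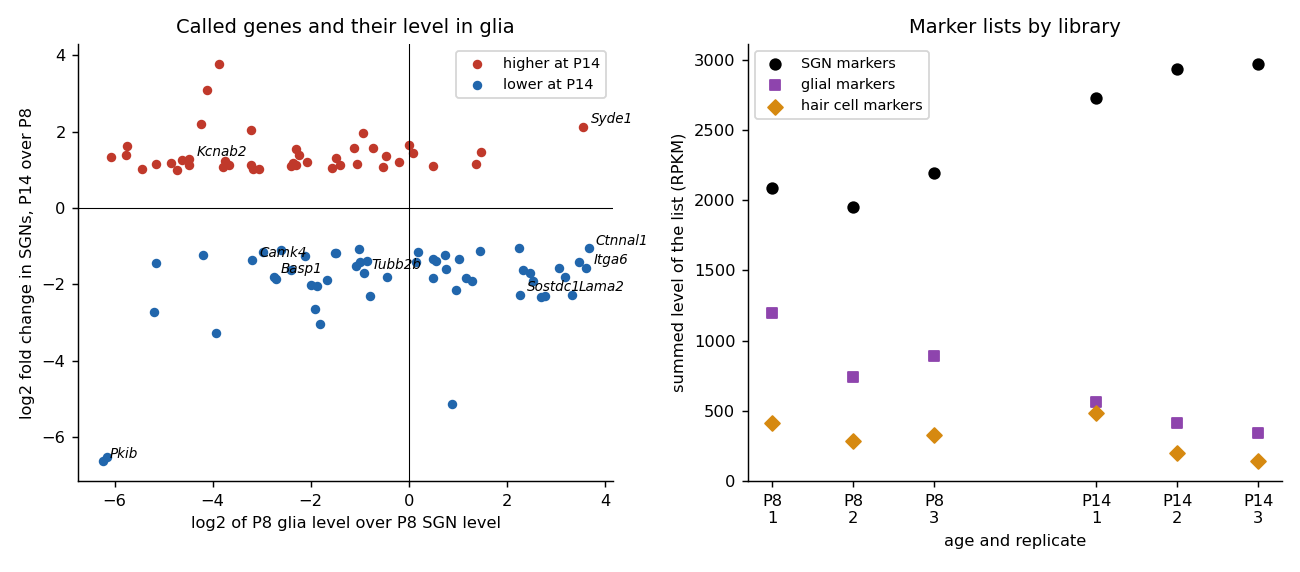
Left, log2 fold change in SGNs from P8 to P14 (vertical axis) of called genes against the log2 ratio of their mean level in P8 glia to that in P8 SGNs (horizontal axis); points right of 0 were higher in glia, and 2 rises at 0 in glia (*BC049352* and *Gm37160*) are left out. Right, summed level in RPKM of the SGN, glial and HC markers in each library: SGN markers are highest at P14, glial markers highest at P8, and HC markers overlap.

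The direction of the called genes was set beside that between P1 and P30 SGNs, which shares no library with the P8 and P14 comparison but shares the fit and its estimate of the spread. Between P1 and P30, 40 of the 44 rises were called higher (90.9%, beside 10.4% of all genes tested) and 41 of the 53 falls were called lower (77.4%, beside 10.1%), and 0 were called the opposite way. *Hapln4* had means of 0.923 RPKM at P1 and 89.3 at P30, and *Scn4b* of 0.937 and 73.3. *Dcx* had means of 96.8 RPKM at P1 and 1.70 at P30. At P8 the mean of *Dcx* was 5.84, nearer to P30 than to P1, and *Hapln4* and *Scn4b* were between their P1 and P30 levels (means 41.0 and 28.7). The mean level was highest at P14 for 24 rises and at P30 for the other 20, and the falls were highest at E15.5 (19), P1 (18) or P8 (16). The summed glial markers were also highest at P8, at 739 to 1195 RPKM. They were at 89.2 to 262 RPKM at E15.5, 102 to 185 at P1, 342 to 566 at P14 and 195 to 346 at P30. The 12 falls without a call between P1 and P30 included *Prx* (-0.12 on the log2 scale, adjusted p = 0.93, limma) and *Sostdc1* (-0.36, adjusted p = 0.81, limma), both high in glia. The rise in *Hydin* had no counterpart between P1 and P30 either (-0.04, adjusted p = 0.95, limma).

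**Figure D5:**
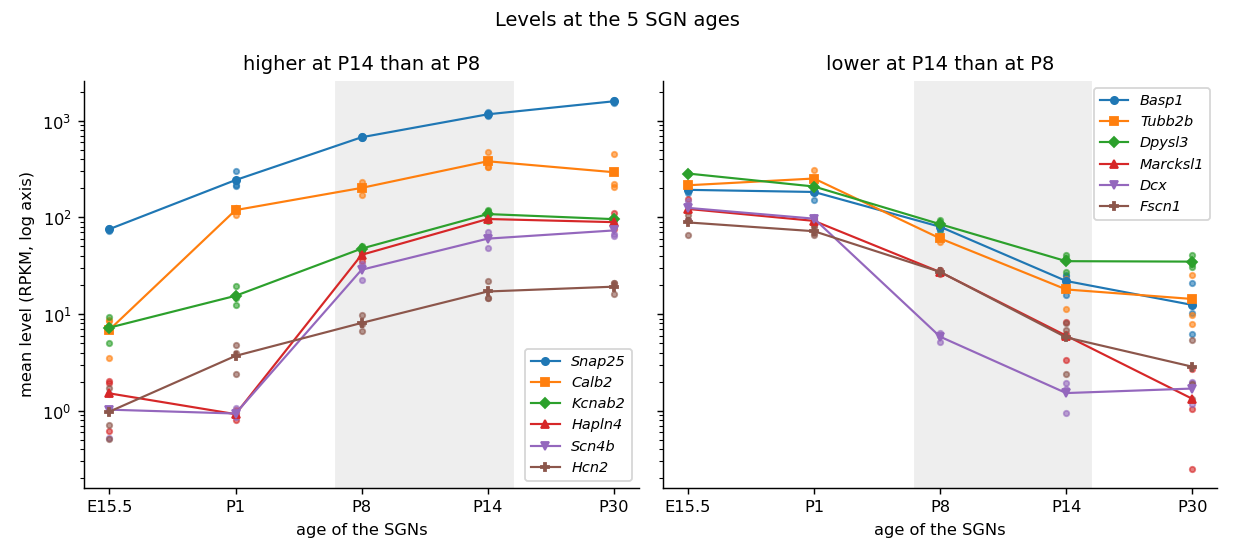
Level in RPKM (log axis) of 6 genes higher and 6 genes lower at P14 than at P8, at the 5 SGN ages; points are single libraries, lines join the means of 3, and shading marks P8 to P14. The rises climb from E15.5 or P1 to P14 and the falls drop from P1 to P14, with smaller steps from P14 to P30 for most genes.

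The RefSeq promoter window of 250 bases before and 50 after the gene start (GRCm38.p6) was available for 28 rises, 34 falls and 9535 of the 13149 symbols tested. 10 common motifs were searched on both strands, and the binding site of EGR factors, GCGGGGGCG, which can overlap a GC box, was found in 7 of 28 rises (25%), 5 of 34 falls (14.7%) and 6.79% of all windows. These shares are a description, with no test, and a match is not evidence of binding. The GC box GGGCGG was found in 60.7% of rises, 67.6% of falls and 70.3% of all windows, and the E-box CACGTG in 17.9%, 2.94% and 11.7%. The AP-1 site TGAGTCA was found in 10.7%, 2.94% and 4.17%, and the TATA box TATAAA in 17.9%, 8.82% and 8.3%. The EGR site was therefore not the only motif with a higher share in rises than in all windows. Windows holding the EGR letters are shown for 3 rises, *Hcn2* (chr10:79716384-79716683, plus strand), *Cpeb1* (chr7:81454709-81455008, minus strand) and *Sun2* (chr15:79742487-79742786, minus strand), and for 1 fall, *Tmeff1* (chr4:48584924-48585223, plus strand), with the match in capitals.
Hcn2: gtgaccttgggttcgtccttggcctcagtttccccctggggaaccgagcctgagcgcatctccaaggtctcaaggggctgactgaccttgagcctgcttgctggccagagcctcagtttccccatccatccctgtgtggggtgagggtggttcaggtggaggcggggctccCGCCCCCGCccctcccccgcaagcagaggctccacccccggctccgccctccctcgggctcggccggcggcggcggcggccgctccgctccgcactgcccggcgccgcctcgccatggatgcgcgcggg
Cpeb1: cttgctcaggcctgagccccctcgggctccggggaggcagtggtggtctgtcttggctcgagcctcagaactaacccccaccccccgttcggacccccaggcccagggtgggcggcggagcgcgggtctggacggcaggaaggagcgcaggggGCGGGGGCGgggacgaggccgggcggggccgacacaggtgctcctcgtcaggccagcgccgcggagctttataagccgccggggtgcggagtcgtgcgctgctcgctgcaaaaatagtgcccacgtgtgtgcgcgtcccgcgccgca
Sun2: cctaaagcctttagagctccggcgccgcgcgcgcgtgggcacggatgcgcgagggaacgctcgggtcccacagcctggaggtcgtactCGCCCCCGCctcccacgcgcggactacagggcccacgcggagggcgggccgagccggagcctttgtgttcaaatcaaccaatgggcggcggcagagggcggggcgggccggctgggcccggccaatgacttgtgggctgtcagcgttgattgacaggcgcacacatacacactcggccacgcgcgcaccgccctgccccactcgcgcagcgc
Tmeff1: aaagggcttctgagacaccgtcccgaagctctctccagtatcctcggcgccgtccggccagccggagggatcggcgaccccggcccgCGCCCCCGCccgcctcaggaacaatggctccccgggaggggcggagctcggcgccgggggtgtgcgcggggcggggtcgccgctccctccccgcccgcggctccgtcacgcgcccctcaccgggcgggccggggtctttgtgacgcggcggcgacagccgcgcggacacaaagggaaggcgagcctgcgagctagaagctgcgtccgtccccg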

How the data were processed

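Counts per gene of 21 libraries were deposited by the authors as raw counts in 1 table, made by aligning paired-end reads to mm10 with STAR 2.4.0i and counting with featureCounts, and samples with leaky germline labelling had been left out. RNA was extracted with PicoPure and amplified with Ovation RNA-Seq V2. Whether counting used strand is not given in the sources used here, so genes that overlap others are uncertain, and amplified reads are not independent molecules. Each of the 21 columns was matched to a sample by its label.

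The main fit used limma 3.58.1 (voom) with TMM factors from edgeR 4.0.16 in R 4.3.3, over all 15 SGN libraries with a mean for each age, and the contrast P14 minus P8. Genes with CPM over 1 in all 3 libraries of either age were tested, two-sided, and the counts of calls combine a Benjamini-Hochberg adjusted p below 0.05 with a change over 2-fold. Levels are RPKM, computed from the counts, the library total and the exon length. RPKM was used because the short annotated gene *Gm23935* took 8.17 to 59.3% of the TPM of the 6 libraries. A floor of 3 counts per library was used for genes at 0 in one age. The script was tested on simulated data with the gene means, library sizes and spread of these libraries. There the limma-voom fit recovered 7% of 100 genes changed 2-fold and 50% of 100 genes changed 4-fold, at an adjusted p below 0.05. A list without calls therefore does not show that its members were unchanged. Alternatives were edgeR's quasi-likelihood test, DESeq2 1.42.0, other filters, scalings and weights, a replicate block, and leaving out each library.

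Genes named are the 15 largest rises and falls with CPM over 10 in all 3 libraries of one age, list members past the adjusted p or among the 4 most abundant, and marker genes. *Ank3*, *Gap43*, *Stmn2*, *Ckb*, *Itga6*, *Syngr1* and *Stk24* were named after their values were seen. Members and lists were chosen with earlier results of these data known. Promoter sequences are from RefSeq. Some genes that meet the rule are not reported here.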

Additional observations from a re-analysis of the deposited data

How the results depend on the processing

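The main fit called 44 rises and 53 falls, and 145 genes passed the adjusted p alone. edgeR's quasi-likelihood test gave 7, 35 and 52, DESeq2 gave 68, 147 and 320, and sample quality weights gave 85, 118 and 377. Library size alone gave 25 rises and moved the median log2 change of all genes to -0.11. A CPM filter of 10 gave 86 falls and 259 genes past the adjusted p. The level of *Gm23935* as a term, chosen after seeing the data, gave 101 falls. Leaving out each library gave 15 to 35 rises, 18 to 31 falls and 46 to 85 genes. The cause of these shifts was not tested, except that a leave-out has fewer libraries. No named gene reversed direction. Called under each of the 16 alternatives were 6 rises (*Tmem250-ps*, *Setd7*, *Kcnab2*, *6430548M08Rik*, *Stk24*, *Sun2*) and 12 falls (among them *Acvr2a*, *Ldlrad3*, *Tmeff1*, *Pappa*, *Ybx1*, *Hip1*, *Igsf9b*, *Nav3*, *6330403K07Rik*, *Basp1*, *Dpysl3*). With the replicate number as a block, 71 rises, 99 falls and 252 genes past the adjusted p were found. Same-numbered P8 and P14 libraries deviated together with r = 0.35, 0.14 and 0.06, and P8 replicate 3 correlated best with P14 replicate 2 (0.19). The replicate 1 libraries had the highest r of any pair. Each had a negative r with the other replicates of the opposite age (-0.11 to -0.26). The labels do not say that the numbers pair the samples, and the main fit has no block. What the replicate 1 libraries share was not tested. With 3 libraries per age and 19323437 to 35591662 counts each, spread between libraries, not counting error, sets the precision for genes well above the floor.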

Other observations

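The genes given here were named after their values were seen. *Pkib*, a protein kinase A inhibitor, had 122, 40 and 86 counts in the P8 libraries and 0 in each P14 library, which is at least 19.3-fold lower against the floor of 3 counts per library. *Pkia*, another member of that inhibitor family, was at 17.2, 25.0 and 21.6 RPKM at P8 and 7.96, 8.69 and 9.35 at P14 (log2 change -1.19 ± 0.27, adjusted p = 0.04, limma). *Akain1*, a protein kinase A anchor inhibitor, was at 3.01, 4.74 and 5.86 RPKM and then at 8.16, 10.5 and 13.997 (log2 change 1.38 ± 0.32, adjusted p = 0.047, limma). *Pkib* and *Pkia* passed the adjusted p in none of the 6 leave-outs and *Akain1* in 1. *Cox8b*, a cytochrome c oxidase subunit best known from muscle and brown fat, was at 1.09, 7.43 and 2.34 RPKM at P8 and 44.6, 33.2 and 25.7 at P14 (log2 change 3.77 ± 0.78, adjusted p = 0.029, limma), with means of 2.76 RPKM at P1 and 17.5 at P30, and it was called in 1 of the 6 leave-outs.

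*Ctsb* and *Dst* passed the adjusted p without a 2-fold change, in the main fit and in each leave-out. *Ctsb*, the lysosomal protease cathepsin B, was at 65.1, 77.7 and 67.1 RPKM at P8 and 107, 112 and 124 at P14 (log2 change 0.81 ± 0.13, adjusted p = 0.0042, limma). *Dst*, the cytoskeletal linker dystonin whose loss causes sensory neuron degeneration in mice, was at 41.7, 42.9 and 43.1 RPKM and then at 63.5, 68.9 and 74.6 (log2 change 0.79 ± 0.12, adjusted p = 0.0042, limma). *Nos1*, the neuronal nitric oxide synthase, was past both thresholds in the main fit, at 18.8, 17.2 and 17.4 RPKM and then 29.8, 36.0 and 35.4 (log2 change 1.01 ± 0.16, adjusted p = 0.0042, limma). Its adjusted p stayed under 0.05 in each leave-out.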
